A study of Mus musculus with 36 samples.

Results

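The genes of oxidative phosphorylation were followed through the conversion of mouse B cells into macrophages by C/EBPα. Members were taken by symbol, as the genes in the log2 expression tables that start with Nduf, Uqcr, Cox4i, Cox5, Cox6, Cox7, Cox8, Atp5 or Sdh, or with mt- followed by Nd, Co, Cytb or Atp, leaving out pseudogene symbols. The rule found 100 of the 19067 genes in those tables. It read symbols only, but a gene had to be among these 19067 of the 40354 genes counted. Left out in this way were 4 matching symbols, Cox7b2, Cox8b, Cox8c and mt-Nd3, each with at most 9 counts summed over all libraries. Of these, 93 are nuclear genes and 7 lie in the mitochondrial genome (mt-Nd1, mt-Nd2, mt-Co1, mt-Nd4, mt-Nd5, mt-Nd6 and mt-Cytb). The nuclear members comprise 38 complex I subunit genes and 8 complex I assembly factors, the 4 subunits and 4 assembly factors of complex II, 8 genes of complex III, 15 of complex IV and 16 of ATP synthase. Cox6a2, a muscle isoform, had between 1 and 11 counts in any library and did not pass the filter on low counts, so 92 nuclear and 7 mt- members were tested. mt-Co2, mt-Co3, mt-Atp6, mt-Atp8 and mt-Nd4l were not analysed here.

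Oxidative phosphorylation takes place in the inner mitochondrial membrane, where complexes I, III and IV pump protons while passing electrons from NADH to oxygen, complex II feeds in electrons from succinate, and ATP synthase uses the proton gradient to make ATP. Complexes I, III, IV and ATP synthase combine nuclear subunits with subunits translated inside the mitochondrion, whereas complex II is nuclear throughout. Messenger RNA from the mitochondrial genome comes from a few long polycistronic transcripts that are cut apart, so its genes share promoters, while nuclear genes are transcribed one by one.

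Poly(A)-selected RNA was sequenced from bone marrow B cells of C57BL/6J mice that carried a retrovirus for C/EBPα fused to the estrogen receptor. Human CD4, made from the same virus behind an IRES, served to enrich infected cells. Cells were kept on mitomycin-C inactivated embryonic fibroblast feeders. The conversion medium held IL-7, IL-3, FLT-3, CSF-1 and SCF, and later medium changes left out IL-7. Induction was with 17β-estradiol (E2), which moves the fusion into the nucleus. The part of the medium in the changes was not tested. The factor was either wild type (WT) or had arginine 35 replaced by alanine (R35A) or by lysine (R35K). Cells were taken before induction (0 h) and at 1, 3, 6, 18 and 120 h post induction (hpi), with 2 biological replicates in each of 18 groups and 36 libraries in all. The 0 h cells of every construct already carried the virus, the R35K libraries were deposited in tables of their own, and the factor was expressed from a retrovirus rather than from its own locus.

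Libraries held between 13044456 and 23131776 counts. In WT cells 8 B cell markers summed to 3953 to 4003 library-scaled counts (CPM) at 0 h. At 120 hpi they summed to 105 to 109. Over the same time 10 macrophage markers went from 63.6 to 63.9 up to 17600 to 17731. Marker sums here were scaled by total counts, without TMM factors. The CPM of members below use TMM library sizes, so marker and member values are not on the same scale. In R35A cells at 1 hpi the B cell markers were already at 533 to 539 CPM against 1822 to 1824 in WT cells. Fibroblast transcripts were present throughout: 10 feeder markers summed to 7874 to 8016 CPM in WT cells at 0 h, 16044 to 16720 at 6 hpi and 18827 to 19246 at 18 hpi, and in R35A cells to 8383 to 8603 at 0 h and 13806 to 13836 at 1 hpi. At 120 hpi Lum was at 3 or fewer counts in each construct, and so was Postn in R35K cells. Without Fn1, which macrophages also express and which was set aside after its values were seen, the other 9 feeder markers summed to 6076 to 6272 CPM in WT cells at 6 hpi and to 145 to 172 at 120 hpi. Granulocyte markers summed to at most 8.50 CPM in any library after 0 h. These shifts ran alongside the changes below and their part in them was not tested. In such bulk samples, fewer cells of a type and less RNA per cell cannot be told apart.

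The first comparison asked how the members moved after induction of the WT factor. Between 0 and 18 h most nuclear OXPHOS genes fell, and most had their lowest mean of those times at 6 or 18 hpi. From 18 to 120 hpi 42 rose and 27 fell with TMM scaling. Over the same time the nuclear share of all counts went from 0.801% to 0.705% (means of 2 libraries). At 6 hpi, 72 of 92 nuclear members were lower than at 0 h and 1 was higher (edgeR quasi-likelihood test, adjusted p at most 0.05), against 31.3% of all tested genes lower and 28.9% higher (60.2% in either direction). Their median log2 fold change was -0.33, beside -0.01 for all genes. Of the 72, 7 passed 1.5-fold (14.7% of all genes were lower past 1.5-fold), and at 1 hpi 0 nuclear members did (9.27%).

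The fall was gradual in WT cells. At 1 hpi, 37 nuclear members were lower and 3 higher (26% and 25.3% of all genes), and at 3 hpi 50 were lower and 1 higher (28.6% and 26.4%). At 18 hpi, 59 were lower and 7 higher (36% and 35.8%), or 45 lower and 15 higher when libraries were scaled by DESeq2 size factors, which shifted all values at that time by 0.12 on the log2 scale. The lowest mean between 0 and 18 h fell at 6 hpi for 55 of the 92 genes and at 18 hpi for 27. Between 0 and 18 h, 35 genes were lower at all 4 times, 74 at 1 or more, and 12 were never called. Matching shares of all genes over several times were not computed.

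**Figure D1:**
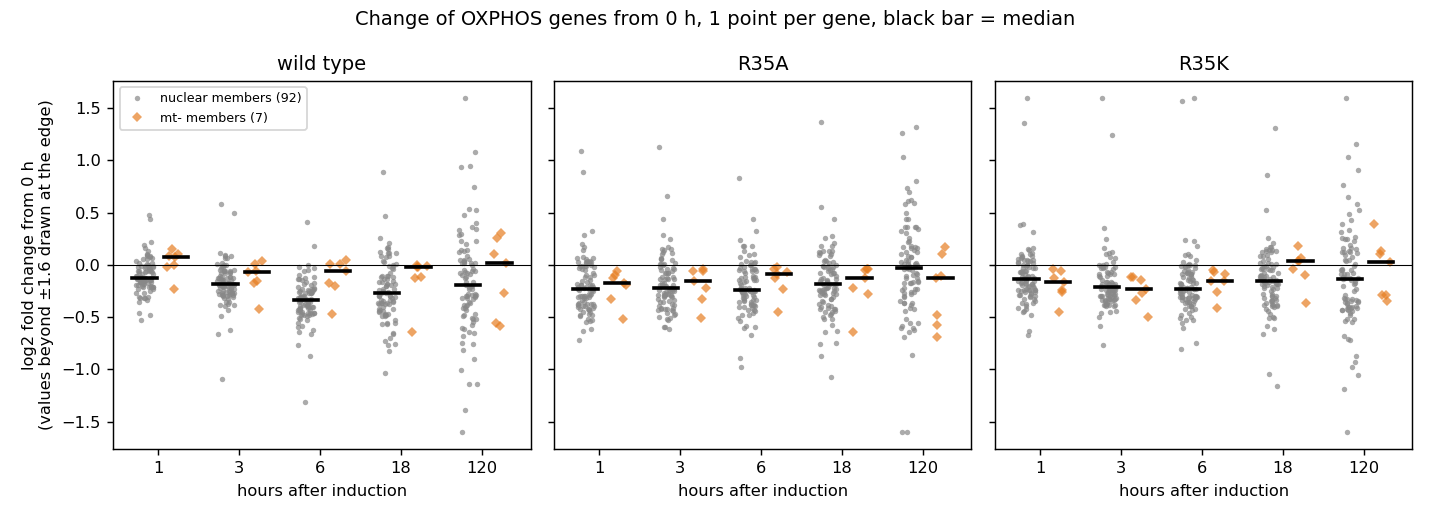
Log2 fold change from 0 h of each nuclear (grey) and mt- (orange) member in WT, R35A and R35K cells, by time in hours (axis not to scale; values beyond ±1.6 drawn at the edge), with the median as a black bar. The WT nuclear median was -0.12 at 1 hpi and -0.33 at 6 hpi, and the R35A one was -0.23 at 1 hpi.

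All complexes took part at 6 hpi. Lower levels were found for 30 of 38 complex I subunit genes (median log2 fold change -0.32), 3 of 4 complex II genes, all 8 complex III genes (-0.35), 12 of 14 complex IV genes (-0.32) and 12 of 16 ATP synthase genes (-0.43). Of the assembly factors, 5 of 8 for complex I (-0.33) and 2 of 4 for complex II (-0.39) were lower. The single member called higher was Cox6b2, the testis isoform of a complex IV subunit.

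Among the most abundant members, Atp5a1, the α subunit of the catalytic head of ATP synthase, read 1016 and 1044 CPM in the 2 WT libraries at 0 h, 835 and 826 at 1 hpi, 774 and 807 at 3 hpi, 726 and 721 at 6 hpi, 622 and 623 at 18 hpi and 844 and 829 at 120 hpi. The groups at 1 to 18 hpi did not overlap with 0 h, and the log2 fold change was -0.51 ± 0.03 (SE; adjusted p = 1.82e-19) at 6 hpi. Ndufb5, an accessory complex I subunit, went from 79.1 and 77.3 CPM to 48 and 50.6 at 6 hpi (-0.66 ± 0.05, adjusted p = 6.85e-16) and 45.5 and 42.7 at 18 hpi, and then read 73.9 and 72.3 at 120 hpi. Both genes thus had their lowest WT levels at 18 hpi and higher levels again at 120 hpi. Sdhaf2, which helps attach the flavin to Sdha, fell early, from 63.5 and 61.1 CPM to 42.6 and 47.6 at 1 hpi (-0.46 ± 0.06, adjusted p = 1.59e-09), and reached 81 and 75.9 at 120 hpi, above where it began. Sdhaf3, another complex II assembly factor, was low throughout, with 8.76 and 8.7 CPM at 0 h and 4.91 and 4.66 at 6 hpi (-0.87 ± 0.15, adjusted p = 2.61e-06).

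Complex II, which has no mitochondrially encoded subunit, did not move as one. Sdha, Sdhb and Sdhd, respectively the flavoprotein, the iron-sulfur subunit and a membrane anchor, were lower in WT cells at 6 hpi by -0.31 ± 0.04, -0.46 ± 0.04 and -0.35 ± 0.04 on the log2 scale (adjusted p at most 2e-10). Sdhc, the other anchor, read 110 and 103 CPM at 0 h and 104 and 109 at 6 hpi, and its log2 fold change of -0.00 ± 0.04 was not called (adjusted p = 0.961). By 120 hpi Sdhc had risen in all 3 constructs, by 0.34, 0.49 and 0.43 in WT, R35A and R35K cells (SE 0.04 in each).

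The nuclear members' upstream sequences were searched for 4 short motifs named for factors known to act on respiratory genes. RefSeq windows (GRCm38.p6, 250 bases before to 50 after the start) were found for 76 of the 93 nuclear members. TGCGCA, the core of the NRF1 motif and its own reverse complement, occurred in 20 of the 76 (26.3%), against 8.06% of all 27025 windows and 13.2% of those of tested genes. CCGGAAG, read on both strands and named here for GABP, also occurred in 20 (26.3%), against 9.12% and 16.4%. AAGATGG (YY1) occurred in 10 (13.2%, against 6.48% and 6.90%) and AAGGTCA (ERR) in 8 (10.5%, against 4.66% and 3.17%). CCGGAAG ends in the letters AAG with which AAGATGG and AAGGTCA begin, so matches can overlap, and a match is one of letters only. Among the 59 windows of genes lower at 6 hpi in WT cells, 25.4% held the NRF1 letters and 28.8% the GABP letters, compared with 29.4% and 17.6% of the other 17. The YY1 letters were in 10 of the 59 (16.9%) and 0 of the 17, and the ERR letters in 10.2% and 11.8%. The Sdhd, Cox6a1 and Ndufb6 windows, which hold both sets of letters, and a pair without, Cox6b2 and Ndufa4, whose changes were among the larger ones at 120 hpi, are shown with the 250 bases before their starts, 5′ to 3′ on the gene's strand, with TGCGCA and either strand of CCGGAAG in capitals.
Sdhd, chr9:50603850-50604099, minus strand: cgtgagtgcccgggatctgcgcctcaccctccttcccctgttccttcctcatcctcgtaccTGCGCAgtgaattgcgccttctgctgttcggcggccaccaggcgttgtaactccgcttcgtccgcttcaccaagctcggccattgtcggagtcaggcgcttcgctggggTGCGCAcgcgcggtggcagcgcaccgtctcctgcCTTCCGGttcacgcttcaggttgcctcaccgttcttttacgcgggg
Cox6a1, chr5:115348959-115349208, minus strand: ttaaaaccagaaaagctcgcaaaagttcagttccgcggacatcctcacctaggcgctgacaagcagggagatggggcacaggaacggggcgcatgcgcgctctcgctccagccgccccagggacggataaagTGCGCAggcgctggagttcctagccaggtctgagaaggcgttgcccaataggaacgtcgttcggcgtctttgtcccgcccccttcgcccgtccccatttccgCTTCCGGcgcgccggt
Ndufb6, chr4:40279422-40279671, minus strand: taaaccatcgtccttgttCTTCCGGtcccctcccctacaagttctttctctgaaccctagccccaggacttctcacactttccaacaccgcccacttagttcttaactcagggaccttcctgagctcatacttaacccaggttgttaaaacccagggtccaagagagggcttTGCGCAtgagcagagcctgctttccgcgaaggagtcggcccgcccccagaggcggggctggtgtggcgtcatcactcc
Cox6b2, chr7:4753095-4753344, minus strand: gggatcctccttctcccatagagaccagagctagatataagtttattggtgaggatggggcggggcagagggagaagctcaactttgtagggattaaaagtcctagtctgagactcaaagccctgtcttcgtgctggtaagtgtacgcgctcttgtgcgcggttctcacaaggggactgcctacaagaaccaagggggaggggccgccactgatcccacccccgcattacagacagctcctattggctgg
Ndufa4, chr6:11907451-11907700, minus strand: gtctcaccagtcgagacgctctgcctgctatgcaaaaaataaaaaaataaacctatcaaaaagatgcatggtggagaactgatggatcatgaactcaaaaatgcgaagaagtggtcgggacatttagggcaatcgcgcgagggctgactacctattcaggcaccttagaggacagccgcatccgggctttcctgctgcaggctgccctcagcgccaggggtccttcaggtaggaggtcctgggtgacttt
In the Sdhd window the NRF1 letters begin 189 and 80 bases and the GABP letters 46 bases before the start, and in the Cox6a1 window 118 and 16 bases before it. The 250 bases shown for Cox6b2 and Ndufa4 hold none of the 4 motifs. Sdhd, Cox6a1 and Ndufb6 were picked for their many matches among members lower at 6 hpi in WT cells.

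In WT cells the mt- share of counts held at 1 hpi while the nuclear share fell. At 1 hpi the 7 mt- members together made up 2.34% and 2.37% of all counts in the 2 WT libraries, as at 0 h (2.37% ± 0.00978, SD, n = 2), while the share of the 93 nuclear members went from 0.999% to 0.896%. By 6 hpi the mt- share was 2.11% and the nuclear share 0.783%, so the log2 ratio of mt- to nuclear counts was 1.25 at 0 h and then 1.39, 1.31, 1.43 and 1.36 at 1, 3, 6 and 18 hpi. At 6 hpi, 3 of 7 mt- members were lower in WT cells (31.3% of all genes), with a median log2 fold change of -0.06. Values per kilobase were taken over all annotated exons of a gene merged. That length can exceed any single transcript of a gene, which lowers its value. Measured so, the mt- median lay 48.0 to 84.7 times above the nuclear median over the 18 groups. All 91 nuclear members with a length lay below mt-Nd4, the lowest mt- member, in every group.

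**Figure D2:**
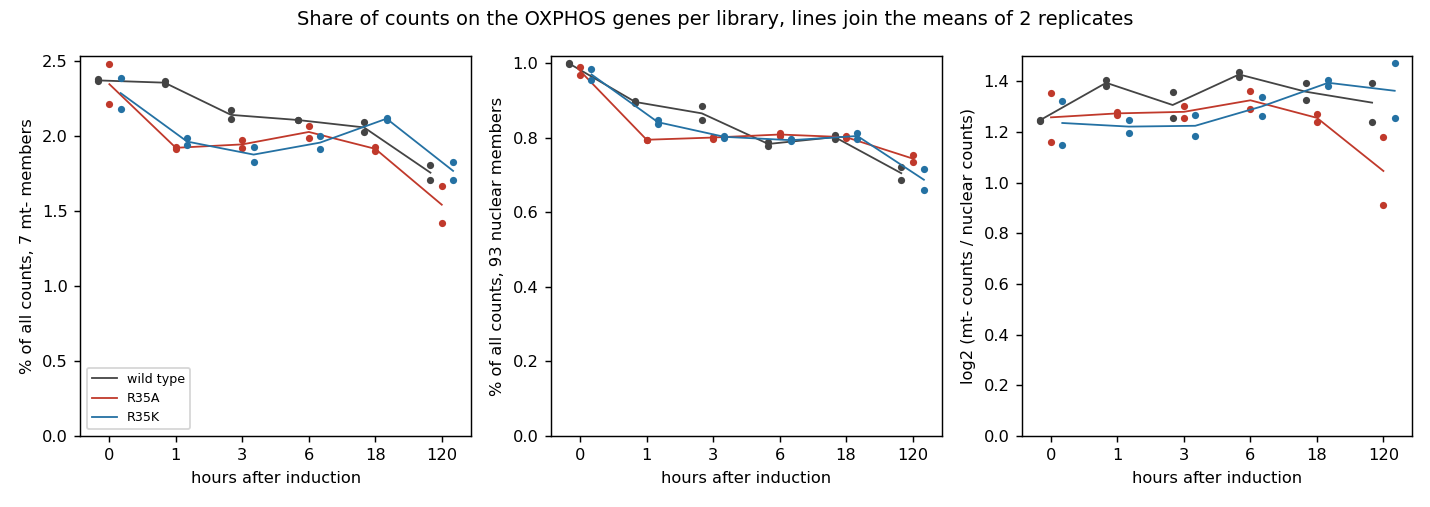
Share of all counts on the 7 mt- members, share on the 93 nuclear members, and log2 ratio of both, by time in hours (axis not to scale) for each library (points), with lines joining the means of 2 replicates. At 1 hpi the mt- share was 2.34% and 2.37% in WT cells, 1.91% and 1.93% in R35A cells and 1.94% and 1.98% in R35K cells.

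mt-Nd1, a core complex I subunit (chromosome M, 2751-3707 on the plus strand), was the exception. In WT cells it read 3848 and 3763 CPM at 0 h, 3240 and 3261 at 1 hpi, 2785 and 2720 at 6 hpi, 2357 and 2516 at 18 hpi and 2516 and 2674 at 120 hpi, so that all later libraries lay below 0 h. Its log2 fold change was -0.23 ± 0.04 at 1 hpi (adjusted p = 1.92e-05) and -0.64 ± 0.04 at 18 hpi (adjusted p = 2.51e-18). mt-Co1 (chromosome M, 5328-6872, plus strand), the catalytic subunit of complex IV, rose in the same hour, from 5149 and 5060 CPM to 5621 and 5744 (0.15 ± 0.04, adjusted p = 0.00064). mt-Cytb (chromosome M, 14145-15288, plus strand), the complex III subunit, read 5955 and 6035 CPM at 0 h and 5967 and 6004 at 1 hpi, and was called lower at 6 hpi (-0.20 ± 0.04, adjusted p = 9.58e-06). mt-Nd6 (chromosome M, 13552-14070) lies on the minus strand and its end overlaps mt-Nd5 (11742-13565) on the plus strand. The counting strand is not given in the sources used here, so reads in the overlap cannot be assigned to either gene. Reads from the opposite strand may also have been counted for either gene, a limit on their separate values.

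Nuclear copies of mitochondrial DNA and of several small subunit genes may also have taken reads from their sources or removed them as multiple matches.

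**Figure D3:**
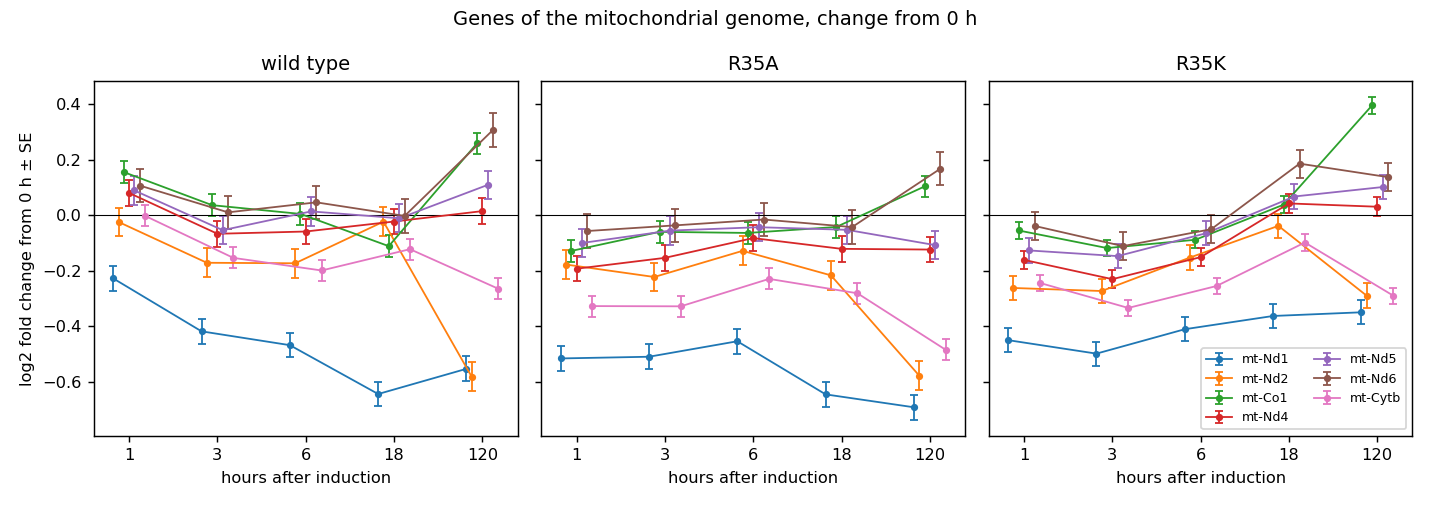
Log2 fold change from 0 h (± SE) of the 7 mt- members in WT, R35A and R35K cells, by time in hours (axis not to scale). At 1 hpi mt-Nd1 was at -0.23 in WT cells and -0.52 in R35A cells, and mt-Cytb was at -0.00 and -0.33.

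The second comparison asked how the R35A mutant differed. At 0 h, 0 of the 92 nuclear and 0 of the 7 mt- members differed between R35A and WT cells by edgeR's adjusted p, in a comparison in which 0.0471% of all genes were called. DESeq2's Wald test also called 0, and at an unadjusted p under 0.05 edgeR had 1 nuclear member higher and 9 lower in R35A cells and 0 mt- members. At 1 hpi, R35A cells already had 55 nuclear members lower than at 0 h and 5 higher, with a median log2 fold change of -0.23 (33.9% and 32.2% of all genes, 66.2% in either direction). The counts then changed little, with 50 lower and 8 higher at 3 hpi (65.9% of all genes called in either direction), 55 and 6 at 6 hpi (67.2%) and 51 and 10 at 18 hpi (70.1%). With size factors the 18 hpi counts were 40 and 15. In R35A cells 45 nuclear members were lower at all 4 times up to 18 h, and the matching share of all genes was not computed.

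Compared directly at 1 hpi, 45 nuclear members were lower in R35A than in WT cells and 1 was higher (50.9% of all genes called in either direction). Without the second R35A library at 1 hpi the count was 24. All 7 mt- members were lower too, with a median log2 difference of -0.31, but 6 were called without either WT or the first R35A library at 1 hpi and 4 without the second R35A library. When the 0 h levels were taken into account, as the R35A minus WT difference in the change from 0 h, 22 nuclear members had a lower change in R35A cells and 0 a higher one by edgeR, with 26 and 1 at an unadjusted p under 0.05 and 9 and 1 by DESeq2's Wald test (19.5% of all genes lower and 14.5% higher), with a median of -0.10 over the 92 beside -0.02 over all genes. By complex these were 10 genes of complex I, 3 of complex III, 2 of complex IV and 7 of ATP synthase. The 22 became 12 to 14 without either R35A library at 1 hpi or without the second WT library at 0 or 1 hpi, and 11, with 3 the other way, with size factors.

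Atp5a1 shows the difference. In R35A cells it read 1013 and 1016 CPM at 0 h and 653 and 673 at 1 hpi, where the WT libraries read 835 and 826, and then stayed between 649 and 673 to 18 hpi. The extra fall at 1 hpi was -0.30 ± 0.05 on the log2 scale (adjusted p = 2.73e-07). Ndufb11, an accessory complex I subunit, went from 64.5 and 71.9 to 47.4 and 48 CPM in R35A cells and from 68.5 and 68.6 to 61 and 63.9 in WT cells (difference in change -0.39 ± 0.08, adjusted p = 4.97e-05). Atp5j2, a subunit of the membrane part of ATP synthase, went from 37.6 and 40.2 to 25.8 and 28.5 CPM in R35A cells and from 34.4 and 38.6 to 32.5 and 34.2 in WT cells (-0.40 ± 0.10, adjusted p = 0.00132). In each of the 3 genes both R35A libraries lay below both WT libraries at 1 hpi and the groups overlapped or lay close at 0 h. Uqcrfs1, the Rieske iron-sulfur protein of complex III, fell further by -0.29 ± 0.06 (adjusted p = 5.73e-05).

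Of the mt- members, 5 of 7 also had a lower change in R35A cells at 1 hpi (median difference in change over the 7, -0.27), against 19.5% of all genes. mt-Cytb read 6240 and 5686 CPM in R35A cells at 0 h and 4694 and 4814 at 1 hpi, below both WT libraries, and the difference in change was -0.32 ± 0.05 (adjusted p = 1.8e-06). For mt-Co1, which had risen in WT cells, the R35A libraries went from 5095 and 4753 to 4500 and 4508 CPM (-0.28 ± 0.05, adjusted p = 3.15e-05). mt-Nd1, mt-Nd4 and mt-Nd5 were the other 3 (-0.29, -0.27 and -0.19), and mt-Nd2 and mt-Nd6 were not called (-0.15 and -0.16, adjusted p = 0.104 and 0.142). The R35A replicates at 0 h differed in mt- share, at 2.48% and 2.21%. DESeq2's Wald test called 2 of the 7, and leaving out the second R35A library at 0 h raised the count to 7.

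At 6 hpi the order had turned for the nuclear members. Against WT cells, 16 nuclear members had a higher change in R35A cells and 0 a lower one by edgeR, with 30 and 0 at an unadjusted p under 0.05 and 14 and 0 by DESeq2's Wald test (11.6% and 14.3% of all genes), among them 8 of complex I and 5 of complex IV. Cox4i1, the common isoform of complex IV subunit 4, read 383 and 400 CPM in R35A cells at 6 hpi against 332 and 337 in WT cells (difference in change 0.23 ± 0.05, adjusted p = 0.000285). Cox7b, another complex IV subunit, read 115 and 114 against 92.6 and 90.5 (0.35 ± 0.06, adjusted p = 1.78e-05). For the mt- members edgeR called 0 at 6 hpi, as did DESeq2's Wald test, and 0 passed an unadjusted p under 0.05. Direct comparison gave 26 nuclear members higher in R35A cells and 1 lower (40.4% of all genes in either direction), or 13 to 16 higher without the first WT library or either R35A library at 6 hpi. At 3 hpi, 9 members had fallen further and 3 less (17.6% and 13.4% of all genes). The 9 became 2 without the second WT library at 3 hpi, 4 without the second R35A library at 0 h, and 5, with 5 the other way, with size factors. At 18 hpi 10 had a higher change and 1 a lower one (11.9% and 9.74%). The 10 became 4 with size factors and 5 or 6 without either R35A library or the first WT library at 0 h.

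**Figure D4:**
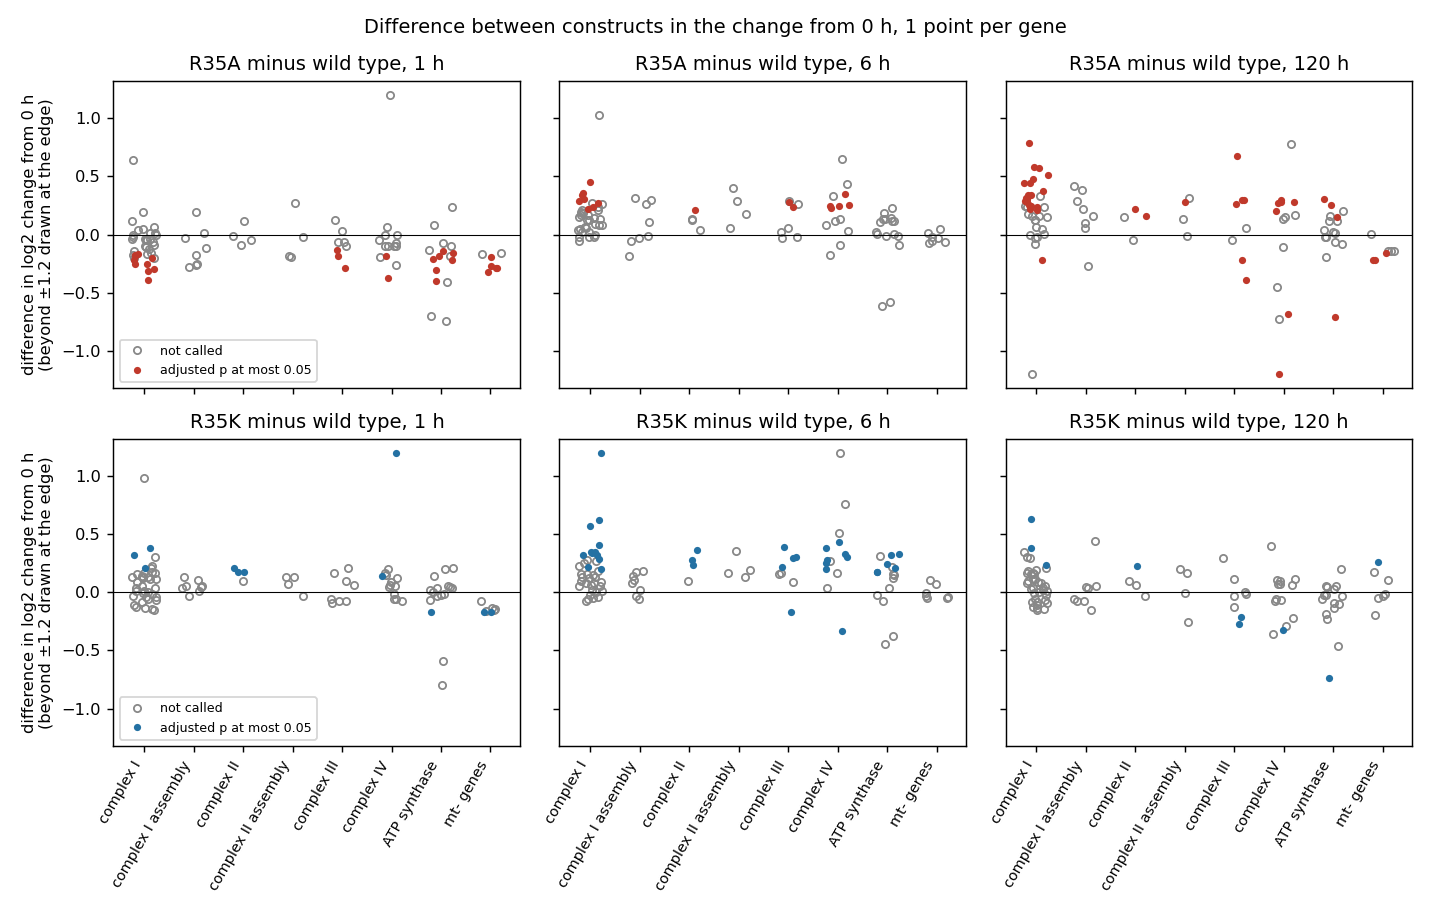
Difference in change from 0 h against WT (log2) of each member, by class, for R35A (upper row) and R35K (lower row) at 1, 6 and 120 hpi (filled points, adjusted p at most 0.05; values past the axis range drawn at the edge). In R35A cells ATP synthase and mt- members lie mostly below 0 at 1 hpi, with 7 of 16 and 5 of 7 called lower.

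The R35K mutant was set against the same WT libraries, so the differences of both mutants share their controls. R35K cells at 1 hpi had 43 nuclear members lower than at 0 h and 7 higher (34.5% and 28.9% of all genes; 27 and 15 with size factors), with a median log2 fold change of -0.13. The counts were 54 and 5 at 3 hpi (64% of all genes called in either direction), 55 and 5 at 6 hpi (64.6%) and 47 and 8 at 18 hpi (68.4%; 34 and 13 with size factors, and 4 higher without the first R35K library at 0 h). Of the mt- members, 5 of 7 were lower at 1 hpi, 6 at 3 hpi and 5 at 6 hpi. Without single libraries these ran from 4 to 7, 4 to 7 and 3 to 7, with 3 at 6 hpi without the first R35K library at 0 or 6 hpi. All 7 were lowest on average at 3 hpi, over the times to 18 h. Atp5a1 in R35K cells read 741 and 735 CPM at 1 hpi after 994 and 1027 at 0 h, a log2 fold change of -0.45 ± 0.03 (adjusted p = 4.66e-14), beside -0.31 in WT and -0.61 in R35A cells.

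In the difference in change against WT at 1 hpi, 8 nuclear members were higher in R35K cells and 1, Atp5b, was lower (14.6% and 14.2% of all genes), and 2 mt- members, mt-Cytb and mt-Nd4, were lower (-0.17 ± 0.05 and -0.17 ± 0.06, adjusted p = 0.0115 and 0.0412). The counts of nuclear members depended on single libraries: the 8 became 2 without the first WT or the first R35K library at 0 h, 4 without the second WT library and 5 without the first R35K library at 1 hpi. The 2 mt- members became 0 without the first WT or the first R35K library at 0 h, 1 without any single library at 1 hpi, and 5 without the second R35K library at 0 h. With mitochondrial genes left out of the scaling, 3 nuclear members were higher and 7 lower. Atp5b, the β subunit of ATP synthase, went from 1396 and 1461 CPM at 0 h to 1109 and 1109 at 1 hpi in R35K cells and from 1432 and 1468 to 1330 and 1329 in WT cells (difference in change -0.17 ± 0.04, adjusted p = 0.00124). Ndufa1, an accessory complex I subunit, went up, from 43.7 and 49.5 to 57.3 and 58.1 CPM (difference in change 0.38 ± 0.11, adjusted p = 0.00344; not called without the first R35K library at 0 h).

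At 6 hpi the R35K difference was broader, with 32 nuclear members higher than in WT and 2 lower (15.9% and 14% of all genes), or 17 higher without the first WT library at 6 hpi. They included 12 of complex I, 3 of complex II, 4 of complex III, 7 of complex IV and 6 of ATP synthase. Ndufa1 again stood out, at 54.7 and 55 CPM in R35K and 38.1 and 43.6 in WT cells (0.62 ± 0.11, adjusted p = 4.54e-06). At 3 hpi, 3 were higher and 3 lower (12.7% and 12.4%; 2 and 4 with size factors, 2 and 8 with mitochondrial genes left out of the scaling), and leaving out single libraries gave 0 to 4 and 1 to 5. At 18 hpi, 24 were higher and 1 lower (18.6% and 12.2%). With size factors, which shifted this comparison by -0.11 on the log2 scale, these were 9 and 5, and with mitochondrial genes left out of the scaling 17 and 3. At 120 hpi 4 were higher and 4 lower (14% and 10.7%). Those higher became 9 without the first WT and 12 without the second R35K library at 120 hpi, and those lower became 10 without the second WT and 9 without the first R35K library at that time.

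The third comparison concerned the macrophage-like cells at 120 hpi, where individual members moved most. In WT cells 19 nuclear members were higher and 44 lower than at 0 h (30.9% and 50.5% of all genes; median log2 fold change -0.19, beside -0.36 for all genes). In R35A cells 28 were higher and 33 lower (32.7% and 49.3%, 82% in either direction), and in R35K cells 26 and 43 (34% and 49%). These splits depended on scaling: with size factors, which shifted all values by 0.16, 0.13 and 0.14 on the log2 scale, they were 32 and 35, 44 and 23, and 33 and 34. They also rested on single libraries. Without the second WT library at 120 hpi, 36 were higher and 26 lower in WT cells, and the median was 0.04. Without the second R35A library at 120 hpi, 47 were higher and 20 lower in R35A cells, and without the first 20 were lower. Past 1.5-fold, 5 of the 92 nuclear members were higher and 13 lower in WT cells (23.1% and 40.2% of all genes). The counts were 8 and 7 in R35A cells (24.2% and 39%) and 7 and 9 in R35K cells (25.4% and 38.5%).

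Of the 72 nuclear members lower in WT cells at 6 hpi, 37 rose between 18 and 120 hpi and 17 fell again, and at 120 hpi 37 were below their 0 h level, 14 above it and 21 not called. Over all nuclear members, 42 rose and 27 fell from 18 to 120 hpi in WT cells (37.1% and 42.2% of all genes), 49 and 17 in R35A cells (36.5% and 39.9%) and 35 and 27 in R35K cells (37.2% and 40%). The 27 that fell in WT cells became 11 to 17 without either replicate at 18 or 120 hpi, the 17 in R35A cells became 7 to 10 likewise, and the 27 in R35K cells became 16 without the second library at 120 hpi. Of the 55 lower at 6 hpi in R35A cells, 33 rose again and 6 fell, and of the 55 in R35K cells 21 rose and 16 fell.

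Complex IV isoforms changed the most. Cox6b2 (chromosome 7, 4751792-4753094, minus strand) read 40.8 and 41.8 CPM in WT cells at 0 h, 59.3 and 55.9 at 1 hpi and 75.7 and 77.5 at 18 hpi, then 1.74 and 1.34 at 120 hpi. R35A cells read 40.7 and 46 at 0 h and 1.44 and 0.575 at 120 hpi, and R35K cells 39.2 and 39, then 1.04 and 1.4. At 6 hpi the libraries read 53.9 and 55.6 in WT, 52.1 and 50.5 in R35A and 40.5 and 39.2 in R35K cells. The gene was thus called higher than at 0 h at 1, 3, 6 and 18 hpi in WT and R35A cells, at 1, 3 and 18 hpi but not 6 hpi in R35K cells, and was low in all 3 constructs at 120 hpi. Its log2 fold change at 120 hpi was -4.73 ± 0.15 in WT, -5.46 ± 0.15 in R35A and -4.99 ± 0.13 in R35K cells (adjusted p at most 3.57e-27). Its somatic counterpart Cox6b1 read 210 and 204 CPM at 0 h and 238 and 218 at 120 hpi in WT cells, so per kilobase Cox6b2 went from 10.8% to 12.7% of the pair over the 0 h libraries to 0.144% to 0.465% at 120 hpi.

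Cox4i2 (chromosome 2, 152754173-152765037, plus strand), the oxygen-responsive isoform of subunit 4, was scarce and went the other way in WT cells, from 0.706 and 0.363 CPM at 0 h to 4.97 and 4.21 at 120 hpi (3.08 ± 0.34, adjusted p = 1.59e-11). R35K cells ended at 2.15 and 1.64 CPM (2.89 ± 0.45, adjusted p = 5.69e-07) and R35A cells at 0.88 and 0.647 (1.04 ± 0.53, adjusted p = 0.0657). The R35A difference in change against WT was -2.05 ± 0.70 (adjusted p = 0.0183), a call that was lost without the second library of WT at 0 h or of R35A at 0 or 120 hpi. Even in WT cells Cox4i2 made up at most 2.01% of the Cox4i pair per kilobase, and Cox4i1 read 477 and 460 CPM at 120 hpi.

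Cox7a2l (chromosome 17, 83501918-83517330, minus strand), a relative of Cox7a2, fell and then rose. WT libraries read 73.5 and 78 CPM at 0 h, 46.9 and 46.7 at 18 hpi and 146 and 145 at 120 hpi, R35A libraries 78.9 and 83.8, 53.3 and 51.5, and 97.4 and 97.9, and R35K libraries 79.1 and 79.6, 60.8 and 61, and 126 and 123. At 120 hpi the constructs did not overlap, with WT highest and R35A lowest. The rise from 0 h was 0.94, 0.26 and 0.65 in WT, R35A and R35K cells (SE 0.05 in each), and the difference in change against WT was -0.68 ± 0.07 for R35A (adjusted p = 2.88e-11) and -0.32 ± 0.07 for R35K (adjusted p = 0.000227). Cox7a2 itself read 123 and 124 CPM in WT cells at 0 h and 116 and 94.4 at 120 hpi, so per kilobase Cox7a2l went from 27.7% and 28.7% of the pair to 44.6% and 49.5% in WT cells and from 29.6% and 30.8% to 34% and 32.9% in R35A cells. Cox7a1, the heart and muscle isoform, stayed below 5 CPM in every library.

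Ndufa4 (chromosome 6, 11900292-11907497, minus strand), named for complex I but since assigned to complex IV, and counted by its symbol among the 38 complex I genes here, moved opposite to Cox7a2l at 120 hpi. It read 167 and 159 CPM in WT cells at 0 h and 68.1 and 55.7 at 120 hpi, 150 and 155 then 96.3 and 105 in R35A cells, and 152 and 151 then 80.4 and 73.1 in R35K cells. WT was lowest and R35A highest at 120 hpi, with no overlap. The log2 fold changes were -1.39, -0.60 and -0.98 (SE 0.05 in each), and the differences in change against WT were 0.79 ± 0.07 for R35A (adjusted p = 1.74e-13) and 0.38 ± 0.07 for R35K (adjusted p = 3.51e-05). Its relative Ndufa4l2 stayed below 1 CPM in every library.

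**Figure D5:**
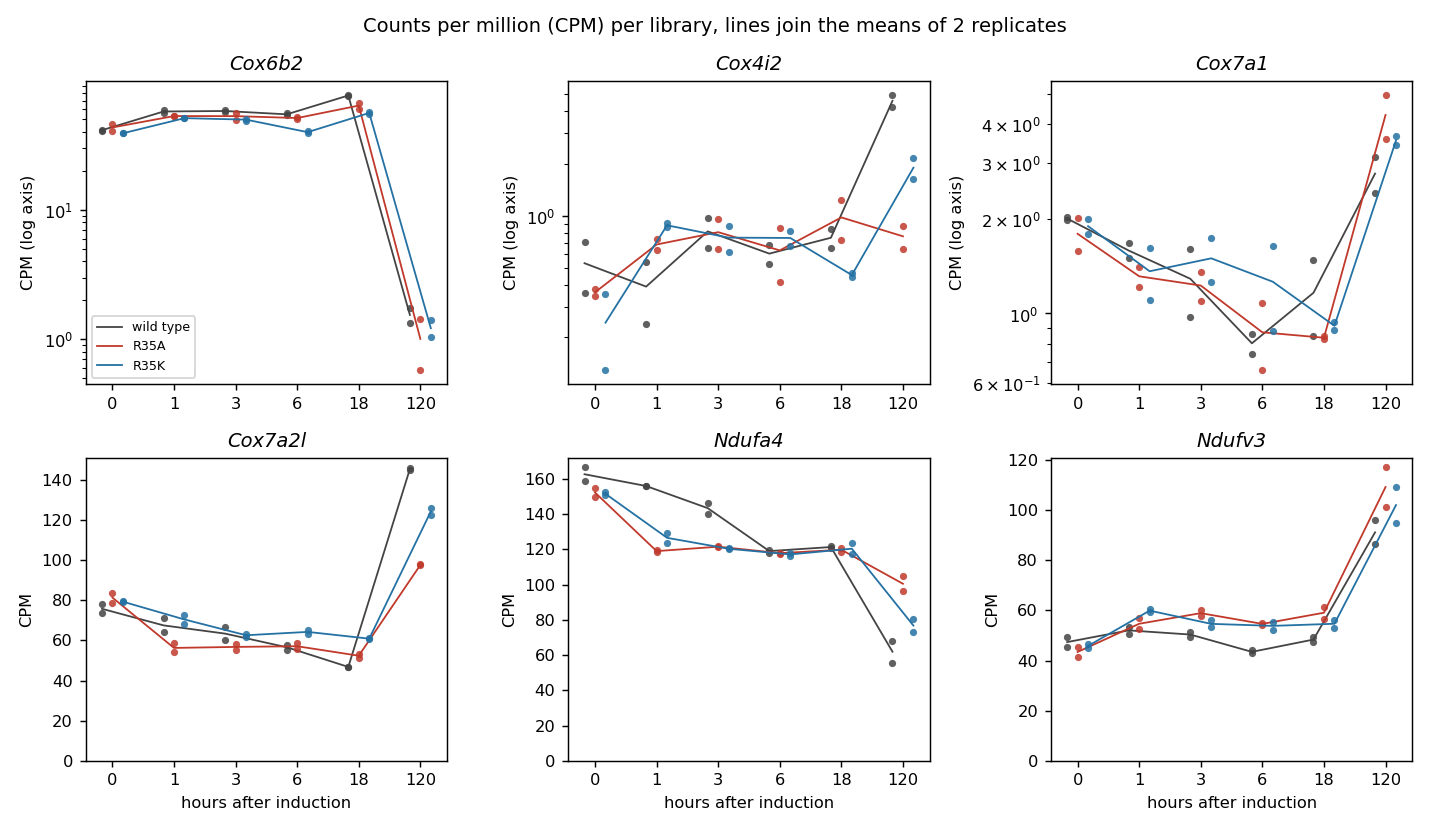
CPM per library (points) of Cox6b2, Cox4i2 and Cox7a1 (log axes) and of Cox7a2l, Ndufa4 and Ndufv3 (linear axes from 0) in WT, R35A and R35K cells by time in hours (axis not to scale), with lines joining the means of 2 replicates. At 120 hpi Cox7a2l runs from 97.4 CPM in an R35A library to 146 in a WT library, and Ndufa4 from 55.7 in a WT library to 105 in an R35A library.

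In complex I, Ndufv3 (chromosome 17, 31520115-31531331, plus strand), an accessory subunit of the NADH-binding module, rose in all constructs by 120 hpi, from 49.5 and 45.2 to 96 and 86.4 CPM in WT, from 41.6 and 45.3 to 117 and 101 in R35A and from 45 and 46.7 to 109 and 94.9 in R35K cells. The log2 fold changes were 0.95, 1.32 and 1.15 (SE 0.06 in each). It was already higher at 1 hpi in R35A (0.33 ± 0.06, adjusted p = 1.23e-05) and R35K cells (0.39 ± 0.06, adjusted p = 1.56e-06), whereas in WT cells the value was 0.14 ± 0.07 (adjusted p = 0.0803). The R35K difference in change at 1 hpi was called (0.32 ± 0.10, adjusted p = 0.00723, not without the first WT library at 0 h) and that of R35A was not (0.19 ± 0.09, adjusted p = 0.108). Ndufaf7 (chromosome 17, 78937136-78948052, plus strand), a complex I assembly factor, went from 23.5 and 19.4 to 46.8 and 43.7 CPM in WT cells and rose by 1.08 ± 0.09, 0.81 ± 0.08 and 1.03 ± 0.08 in WT, R35A and R35K cells. Neither mutant's difference in change was called for it at 120 hpi (adjusted p = 0.0769 and 0.728). Ndufb6, another accessory subunit, went from 38.7 and 38.5 to 19 and 16 CPM in WT cells and fell by 0.69 on the log2 scale in R35A and 1.05 in R35K cells.

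Between constructs at 120 hpi, 34 nuclear members had a higher change in R35A than in WT cells and 6 a lower one (20.2% and 13% of all genes; median 0.16, beside 0.08 for all genes), 19 of the 34 in complex I. Without the second WT library at 120 hpi the 34 became 15. Directly compared, 36 were higher and 10 lower (46% of all genes in either direction; 29 and 15 with size factors), and 14 were higher without that library, while 6 were lower without the first WT library at 120 hpi. Uqcr11, a small complex III subunit, read 67 and 55.7 CPM in R35A cells and 45.1 and 37.4 in WT cells after 40.4 and 39.6, and 43 and 43.4 at 0 h (difference in change 0.68 ± 0.10, adjusted p = 5.99e-07). Uqcrh, the hinge protein of complex III, ran the opposite way, at 143 and 139 CPM in R35A, 165 and 144 in R35K and 186 and 191 in WT cells, with differences in change of -0.39 ± 0.05 (adjusted p = 3.14e-08) for R35A and -0.27 ± 0.06 (adjusted p = 0.000394) for R35K. Members of the same complex therefore differed from WT in both directions.

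Both mutants, compared with the same WT libraries, also differed from them in Atp5l and Ndufab1. Atp5l, subunit g of ATP synthase, read 8 and 8.99 CPM in R35A and 8.13 and 9.66 in R35K cells at 120 hpi against 13.1 and 14 in WT cells, after 14.6 to 17.4 in all 0 h libraries (differences in change -0.70 ± 0.16, adjusted p = 0.0003, and -0.74 ± 0.17, adjusted p = 0.000404). Ndufab1, the mitochondrial acyl carrier protein, read 6.8 and 8.51 CPM in WT cells, 11.5 and 11.7 in R35A and 12 and 12.5 in R35K cells (0.58 ± 0.19, adjusted p = 0.0133, and 0.63 ± 0.18, adjusted p = 0.00692). Its calls were lost without the first WT library at 0 or 120 hpi, and at 0 h the WT replicates read 20.2 and 13.3.

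The mt- members diverged from one another by 120 hpi. In WT cells mt-Nd1 and mt-Nd2 were lower by -0.55 ± 0.04 and -0.58 ± 0.05 and mt-Cytb by -0.26 ± 0.04, while mt-Co1 had risen to 6030 and 6182 CPM (0.26 ± 0.04, adjusted p = 4.48e-08) and mt-Nd6 to 840 and 917 CPM (0.31 ± 0.06, adjusted p = 1.13e-05). mt-Nd5 was also called higher (0.11 ± 0.05, adjusted p = 0.0462), though not without either WT library at 0 h. The mt- share of counts was 1.75% ± 0.0708 in WT, 1.42% and 1.66% in the 2 R35A libraries and 1.77% in R35K cells (mean of 2). The share of the nuclear members was 0.705%, 0.744% and 0.687% in WT, R35A and R35K cells (means of 2). At 18 hpi that share had been 0.801%, 0.801% and 0.804%. R35A cells had 5 mt- members lower and 2 higher than at 0 h (49.3% and 32.7% of all genes), or 3 and 2 with size factors. The 5 became 3 without the first R35A library at 0 or 120 hpi, and the 2 became 0 without the second at 0 h and 4 without the first at 120 hpi. In R35A cells 3 mt- members had a lower change than in WT cells (13% of all genes), mt-Co1 (-0.16 ± 0.05), mt-Nd5 (-0.22 ± 0.07) and mt-Cytb (-0.22 ± 0.05), with adjusted p of 0.0229, 0.0155 and 0.000877. Without single libraries this count ran from 1 to 6 (1 without the second WT library at 120 hpi or the first R35A library at 0 or 120 hpi, 6 without the second R35A library at 0 h), and DESeq2's Wald test gave 1.

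Genes around the pathway, from lists given by function, are set beside the members. Glycolysis went the other way from the nuclear members: 11 of 18 genes were higher at 1 hpi in WT cells (median log2 fold change 0.28, with 25.3% of all genes higher), 17 of 18 in R35A cells (0.68, 32.2%) and 16 of 18 in R35K cells (0.61, 28.9%), and 14 had a higher change in R35A than in WT cells (14.5% of all genes). Hk2, which phosphorylates glucose, rose by 0.77 in WT and 1.54 in R35A cells at 1 hpi, and Slc2a1, a glucose transporter, by 0.82 and 1.15. At 120 hpi 16 of the 18 were higher and 2 lower in each construct, where 30.9% (WT), 32.7% (R35A) and 34% (R35K) of all genes were higher. Among enzymes of the TCA cycle 8 of 13 were lower and 1 higher in WT cells at 6 hpi (31.3% of all genes lower), and 10 were lower and 1 higher in R35A cells at 1 hpi (33.9%).

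Of the other lists at 6 hpi in WT cells, when 31.3% of all genes were lower, 7 of 12 electron carriers and subunits outside the symbol rule were lower, 9 of 15 complex IV assembly factors were lower and 1 higher, 9 of 15 mitochondrial RNA handling genes were lower, and 5 of 11 genes of mitochondrial transcription and replication were lower. Among 9 regulators, 4 were lower and 1 higher at 1 hpi in WT cells (26% of all genes lower), and 6 lower and 3 higher in R35A cells (33.9%). Ppargc1b, a coactivator of respiratory genes, fell by 1.22 on the log2 scale in WT and 1.48 in R35A cells at 1 hpi, Nrf1 fell by 0.39 and 0.88, and Tfam, which binds and packs mitochondrial DNA, fell by 0.18 and 0.50. Myc rose by 0.51 and 0.75.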

How the data were processed

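Bulk RNA-seq of 36 libraries was used (12 per construct, 2 biological replicates in each of 18 groups, per the labels). The authors made stranded poly(A) libraries, sequenced single-end reads, aligned them to mm10 with STAR 2.5.0a, which also counted reads per gene, and normalized with DESeq2 1.14.1. The annotation and counting strand are not given in the sources used here. The authors deposited raw counts per gene and log2 normalized values in separate tables for WT with R35A and for R35K. The log2 tables served to choose the members, and 100% of their values were recovered from the deposited counts within 0.01. The depth was 13044456 to 23131776 counts per library, with 0 columns unused, and 2 libraries per group limit the precision of every value.

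Counts were tested with edgeR 4.0.16 (R 4.3.3, limma 3.58.1), using TMM scaling, a filter on low counts and the quasi-likelihood test across all genes (16988 for WT and R35A, 16434 for R35K, 17277 for all 36 libraries), with Benjamini-Hochberg adjustment and a threshold of 0.05. WT and R35A values and member CPM came from the fit over their 24 libraries, and those of R35K from its own 12. R35K minus WT differences came from a joint fit over 36. Marker sums were scaled by total counts alone. Tests on simulated data for the R35A difference in change at 1 h (15798 genes) recovered 35.8% of genes changed 1.2-fold, 91.0% at 1.5-fold and 98.5% at 2-fold. Gene positions are from GENCODE vM21 and promoter sequences from RefSeq GRCm38.p6. Alternatives were DESeq2 1.42.0, its size factors, scaling without mt- genes, other filters, thresholds and fits, a replicate block and leaving out each replicate.

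The members and lists were chosen with earlier results of these data known. Genes named were every mt- member, Sdha to Sdhd, members with an isoform among the members, the largest called rise and fall of each nuclear group at 120 h in WT cells, the 3 largest called differences of each mutant in each direction at 1 and 120 h, and the 2 largest called rises and falls of WT and R35A cells at 1 and 18 h. Atp5a1, Uqcrfs1, Cox7b, Ndufb6 and Sdhaf2, and any gene named outside this rule, were chosen after their values were seen.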

Additional observations from a re-analysis of the deposited data

Results flagged for a closer look

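The 21 values below are the largest called differences of each mutant from WT cells at 1 and 120 hpi, at most 3 in each direction. Other members were also called in each of these comparisons. The test was of the difference in the change from 0 h itself (edgeR's quasi-likelihood interaction, adjusted p at most 0.05). They are log2 differences in change, and both mutants share the WT libraries. At 1 hpi in R35A cells they were Atp5j2 (-0.40), Ndufb11 (-0.39) and Cox7a2l (-0.37). At 120 hpi in R35A cells Cox4i2 (-2.05), Atp5l (-0.70) and Cox7a2l (-0.68) were lower, and Ndufab1 (0.58), Uqcr11 (0.68) and Ndufa4 (0.79) higher. At 1 hpi in R35K cells mt-Cytb (-0.17), mt-Nd4 (-0.17) and Atp5b (-0.17) were lower, and Ndufv3 (0.32), Ndufa1 (0.38) and Cox4i2 (2.35) higher. The Cox4i2 value rests on levels below 1 CPM and was not called by DESeq2's Wald test or without the first WT library at 0 h, the second WT library at 1 hpi or the second R35K library at 0 h. At 120 hpi in R35K cells Atp5l (-0.74), Cox7a2l (-0.32) and Uqcrh (-0.27) were lower, and mt-Nd2 (0.26), Ndufa4 (0.38) and Ndufab1 (0.63) higher. The mt-Nd2 call was lost by DESeq2's Wald test.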

How the results depend on the processing

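Members called at 1 or more times numbered 87 nuclear and 6 mt- in WT cells, 87 and 7 in R35A, 84 and 7 in R35K, 83 and 5 from 18 to 120 hpi, 82 and 7 for R35A against WT at one time, 61 and 5 for the R35A difference in change, and 48 and 6 for that of R35K. The share of all genes called at 1 or more times was not computed. At 120 hpi alone, 81.4%, 82% and 83% of all genes were called in WT, R35A and R35K cells, and 79.3% from 18 to 120 hpi in WT cells. At 1 hpi alone, 50.9% were called for R35A against WT and 34% for the R35A difference in change. The R35K difference in change had 30.8% at 18 hpi alone. With a 1.5-fold threshold beside the adjusted p the member counts became 26 and 1, 22 and 1, 19 and 0, 23 and 0, 7 and 0, 5 and 0, and 5 and 0, and with the unadjusted p the last pair of comparisons gave 7 and 0, and 6 and 0, with the others as before. The matching share of all genes past 1.5-fold at 1 or more times was not computed. At 120 hpi alone in WT cells 23.1% of all genes were higher and 40.2% lower past 1.5-fold. DESeq2's Wald test called 2 mt- members in the R35A difference in change and 1 in that of R35K. Leaving out each replicate gave 84 to 88 nuclear and 5 to 7 mt- members in WT cells, 75 to 82 and 6 to 7 for R35A against WT, 51 to 63 and 4 to 7 for the R35A difference, and 41 to 52 and 4 to 6 for that of R35K. With only the compared groups in the fit, 37 nuclear members were higher and 23 lower at 120 hpi in WT cells (19 and 44 in the report), 47 and 15 in R35A cells (28 and 33), and 13 and 8 in the R35A difference in change at 120 hpi (34 and 6).

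Over all pairs of groups, same-numbered replicates did not deviate together (median correlation over 153 pairs -0.0063, 12 above 0.1 and 17 below -0.1). Most of these pairs join different constructs, so pairing within a construct was not tested on its own. The labels do not say whether a number marks a shared culture or day. With a replicate block the counts were 86 nuclear members in WT and 86 in R35A cells, and 60 nuclear and 6 mt- in the R35A difference.

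A sign changed only for some values at 120 hpi and for mt-Nd6 in R35A cells at 1 hpi. Called values were among those at 120 hpi, since all 7 mt- members were called in R35A cells at that time. In WT cells at 120 hpi Sdha was 0.16 with size factors and with DESeq2's Wald test (0.157 in each), 0.13 in one fit over 36 libraries and 0.23 with only the compared groups, where Sdhb was 0.15 and Cox7a2 0.0080. In R35A cells at 120 hpi Sdhb was 0.0035 with size factors and with the Wald test and 0.072 with only the compared groups, where Cox6a1 was 0.16, mt-Nd4 0.073 and mt-Nd5 0.089. There mt-Nd4 was 0.0047 with size factors and 0.0045 with the Wald test, and mt-Nd5 was 0.021 with both and 0.015 in one fit over 36. Leaving out each replicate gave -0.024 to 0.14 for Sdha and -0.25 to 0.041 for Cox7a2 in WT cells, and in R35A cells -0.13 to 0.030 for Sdhb, -0.063 to 0.17 for Cox6a1, -0.19 to 0.15 for mt-Nd4, -0.24 to 0.14 for mt-Nd5 and -0.041 to 0.41 for mt-Nd6 at 120 hpi, and -0.26 to 0.18 for mt-Nd6 at 1 hpi. The cause was not tested. Of single-gene values, 1448 kept direction and call, 254 lost a call, 45 gained one and 17 changed sign outside the replicate tests.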
